A study of Mus musculus with 16 samples.

Results

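A knockout library of mouse colon tumour organoids still held cells with transcripts of N6amt1, the gene that was to be removed, and these cells are described here. Of 1405 cells kept from the plus TAM library (at least 1000 genes, at least 5000 unique molecular identifiers or UMIs, which count captured RNA molecules, and at most 20% mitochondrial UMIs), 195 carried 1 or more N6amt1 UMIs and 1210 carried 0. The 195 are called positive cells. Because they were chosen by that count, their N6amt1 level is a description and not a finding. For each positive cell the 3 zero cells nearest in total UMIs were taken, without using a cell again, which gave 585 reference cells. The question was whether positive cells lay nearer than reference cells to the control library in genes that differ between the libraries.

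The cells came from organoids of mouse colon tumours made with azoxymethane, a carcinogen, and dextran sodium sulfate, which injures the colon lining (the AOM/DSS model), at passage 14. How many tumours, mice or cultures they stand for was not given in the sources used here. The control library is labelled minus TAM and KMT9wt/wt, the knockout library plus TAM and KMT9ko/ko. Both libraries are named with the same day, but what that day is counted from was not given in the sources used here. The time from the start of treatment to capture is therefore not known, and its part in the N6amt1 level left was not tested. TAM is not spelled out in the labels, and its own effect cannot be told apart from that of the knockout. Each group is 1 library, so no test across replicates was possible, and every interval below is a 95% interval for counting error only, which does not hold the spread between cells or cultures. A gene is called higher or lower at a log2 ratio of 0.32 or more in either direction, a threshold of size and not a test.

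KMT9 is a histone methyltransferase that places a monomethyl mark on histone H4. It is a dimer of KMT9alpha, encoded by N6amt1, and TRMT112, a small activator protein that also serves other methyltransferases. Colon tumour epithelium holds cells in several states, among them Wnt-driven stem-like cells, dividing cells, fetal-like cells as in healing tissue, and colonocyte-like cells.

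N6amt1 (ENSMUSG00000044442) is annotated in GENCODE M21 on mm10 chromosome 16, from 87354185 to 87368742 on the plus strand. Its last exon differs between transcripts. It starts at 87367465 in N6amt1-201 and N6amt1-203, at 87366139 in N6amt1-202 and at 87362520 in N6amt1-204. The assay reads the 3′ end of transcripts, and the deleted exon and its position are not given in the sources used here. An N6amt1 UMI therefore does not show that a cell kept an intact allele, and a count of 0 does not show that it lost one. How many of the 195 cells escaped deletion was not tested.

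Most positive cells held a single N6amt1 molecule. In the knockout library 167 cells had 1 UMI, 25 had 2 and 3 had 3, and none had more. Of the positive cells 14.4% (interval 9.76 to 20.1) had 2 or more, against 45.8% (43.2 to 48.5) of the 1418 positive cells among 2544 kept control cells. The level in positive cells was 38.9 CPM (counts per 1000000 UMIs, summed over the cells), against 56.0 CPM in control positive cells. Over all kept cells it was 6.0 CPM (5.24 to 6.83) in the knockout and 34.5 CPM (33.1 to 35.9) in the control library, so 17.4% of the control level was left. After each cell was thinned to 5000 UMIs, 3.35% of knockout and 17.2% of control cells held an N6amt1 UMI, where 13.9% and 55.7% did at full depth.

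**Figure D1:**
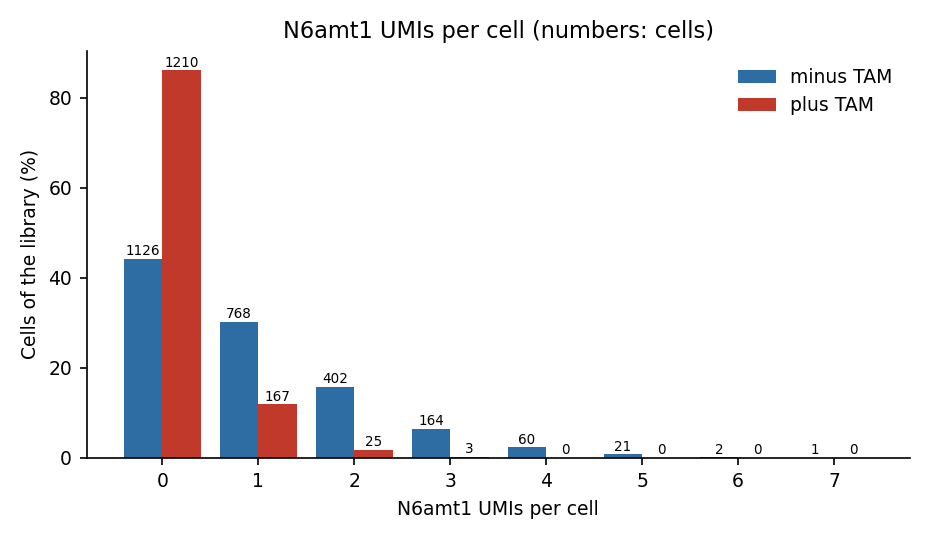
Share of kept cells (vertical axis, percent of the library) by number of N6amt1 UMIs per cell (horizontal axis), for the minus TAM (blue) and plus TAM (red) libraries, with the number of cells above each bar. In plus TAM 1210 cells had 0 UMIs, 167 had 1, 25 had 2 and 3 had 3, while control cells reached 7.

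Detection followed depth in both libraries. With knockout cells split into 4 groups of like size by total UMIs, from the shallowest to the deepest, 10.3%, 13.7%, 14.0% and 17.6% were positive, and at the same limits 39.3%, 51.8%, 59.3% and 71.7% of control cells were. The match removed this from the comparison below, with medians of 27109 UMIs in positive and 27104 in reference cells. Median genes per cell were 4984 and 4918, and median mitochondrial shares 2.98% and 2.75%. Barcodes below the cell filter, with a median of 1120 UMIs, stood at 8.44 CPM N6amt1 in the knockout matrix (10 UMIs, interval 4.05 to 15.5). In the control matrix such barcodes stood at 13.1 CPM. All kept cells stood at 6.0 CPM in the knockout, which that knockout interval holds, and at 34.5 CPM in the control. N6amt1 was thus present outside kept cells too, and the part of this outside level in the positive cells was not tested. Of the 673 knockout barcodes below the filter, 166 (24.7%) also stood in the control matrix. The control copy was the larger in 165 and held N6amt1 in 124. How many of the 10 UMIs lay on these barcodes was not tested.

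The matrices share 498 barcodes. Of the positive cells 51 (26.2%) and of the reference cells 154 (26.3%) had a barcode that also stood in the control matrix. For the positive cells the control copy had a median of 837 UMIs, 2.81% of the knockout copy, was the larger copy in 0 of 51, and held N6amt1 in 1. Values without cells of a shared barcode are given beside some of the named genes and lists that changed with them, and others in the closing section.

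Chchd10, which encodes a mitochondrial protein of the cristae, had among the largest differences between the libraries. Per cell its level ran from 0 through a median of 125 to 859 CPM in the positive cells, from 0 through 123 to 713 CPM in reference cells, and from 0 through 534 to 2679 CPM in control cells. The positive and reference cells overlapped almost completely, and both lay mostly below the control median. That median was reached by 3 of 195 positive cells (1.54%, interval 0.32 to 4.43) and 4 of 585 reference cells (0.684%, 0.19 to 1.74). From summed UMIs Chchd10 stood at 173 CPM in positive cells, 153 CPM in reference cells and 632 CPM in the control, a log2 ratio of positive over reference of 0.18 (0.07 to 0.28). Positive cells had thus covered 4.21% (1.64 to 6.95) of the distance from the reference to the control level. Without cells of a shared barcode the log2 ratio was 0.06. Between positive and zero cells of the control library, the Chchd10 log2 ratio ran from 0.02 to 0.09 across 10 processing settings.

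**Figure D2:**
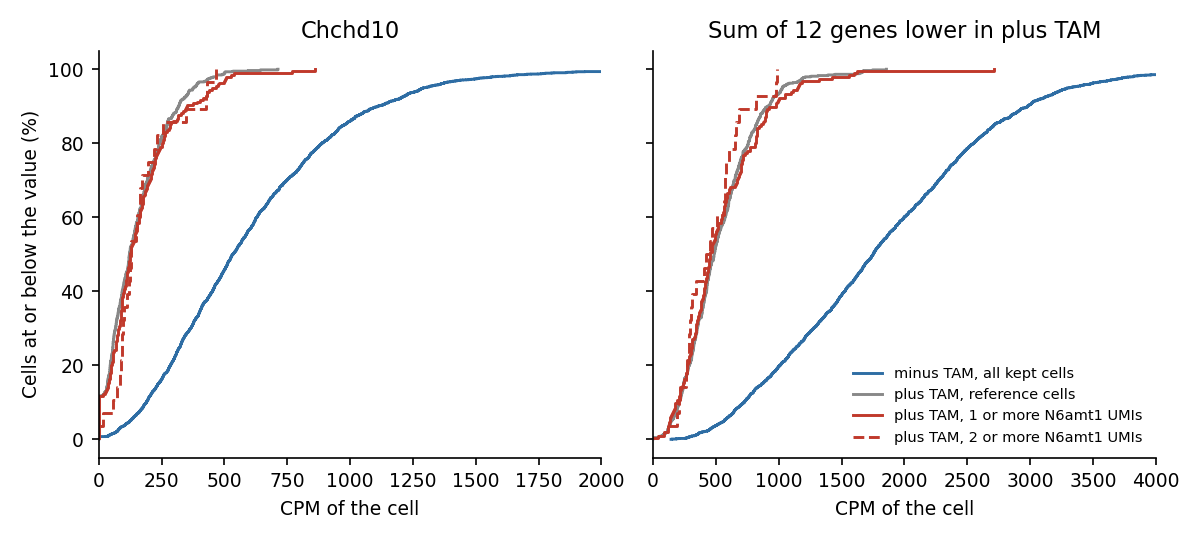
Cumulative share of cells (vertical axis, percent) at or below a level in CPM of the cell (horizontal axis, which leaves out the highest control cells) for Chchd10 and for the sum of 12 genes that are lower in plus TAM. The curves of positive cells (red), of those with 2 or more N6amt1 UMIs (dashed) and of reference cells (grey) lie together, with medians of 125, 129 and 123 CPM for Chchd10, left of control cells (blue, 534 CPM).

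Ascl2, a transcription factor that specifies intestinal stem cells, stood at 43.7 CPM in positive cells, 33.7 CPM in reference cells and 117 CPM in the control. Its log2 ratio of positive over reference was 0.38 (interval 0.16 to 0.59), which is 12.1% (4.68 to 20.6) of the distance to the control. Of the 4 genes the question named, it alone was past the threshold of size, and it was not with all zero cells as reference (0.23), with zero cells of the same cluster (0.23), without the colonocyte-like cluster (0.27), by the mean CPM of each cell (0.318) or without the cell with the most Ascl2 UMIs in each group (0.317). After thinning to 5000 UMIs an Ascl2 UMI was seen in 12.3% of positive cells, 11.3% of reference cells and 33.8% of control cells, so the higher CPM went with a similar share of cells. When positive and zero cells of the control library were compared likewise, the Ascl2 log2 ratio ran from 0.16 to 0.33 across 10 processing settings. Cdx2, a homeobox factor that keeps gut epithelium intestinal, stood at 23.9 CPM in positive cells, 25.4 CPM in reference cells and 92.8 CPM in the control, with a log2 ratio of -0.09 (-0.38 to 0.19). Trib3, a pseudokinase induced by the integrated stress response, stood at 37.2, 39.7 and 129 CPM in the same order, with a log2 ratio of -0.10 (-0.32 to 0.13). For Cdx2 and Trib3 the positive cells were on the far side of the reference cells from the control, within the counting interval. Without cells of a shared barcode the log2 ratio was -0.12 for Cdx2 and -0.47 for Trib3, the latter outside its interval above.

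In all, 12 genes with the largest ratios toward the control were chosen earlier from a comparison of these same libraries. They are these 4 genes and Avil, Atf5, Cth, Lonp1, Coa7, Ppp1r1b, Rpp25l and Cyb5r1. Their summed level ran per cell from 0 through a median of 457 to 2712 CPM in positive cells, from 0 through 486 to 1858 CPM in reference cells and from 144 through 1751 to 5221 CPM in control cells. Again the positive and reference cells overlapped, and 1 of 195 positive and 1 of 585 reference cells reached the control median. Of the 11 genes measured (20 or more CPM over positive and reference cells together), 1 was higher in positive cells, 0 were lower and the median log2 ratio was 0.07. Over all 5481 genes measured, 2.59% were higher and 3.98% lower, with a median of 0.01. From summed UMIs the 12 genes stood at 567 CPM in positive, 542 CPM in reference and 1877 CPM in control cells, so the positive cells covered 1.88% of the distance. Without cells of a shared barcode the median log2 ratio of these genes was -0.0087. The log2 ratio of their sum was 0.07 (0.01 to 0.12). In the control library the same procedure gave 1905 CPM in positive and 1851 CPM in zero cells, a log2 ratio of 0.04 (0.03 to 0.05).

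The members differed little among themselves. Atf5, a transcription factor of the mitochondrial stress response, stood at 52.1 against 46.3 CPM in positive and reference cells and 158 CPM in the control. Lonp1, a protease of the mitochondrial matrix, stood at 58.0 against 60.2 CPM, with 175 CPM in the control. Ppp1r1b, an inhibitor of protein phosphatase 1, was farthest on the other side among genes above 50 CPM: it stood at 68.5 and 77.9 CPM with 246 CPM in the control (log2 ratio -0.19, -0.35 to -0.02). No member other than Ascl2 covered more than the 10.6% of Cth, an enzyme of cysteine synthesis. Chchd10, Avil, Atf5, Ppp1r1b, Rpp25l and Trmt112 each overlap a gene annotated on the other strand, and how the counting treated strands was not given in the sources used here.

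**Figure D3:**
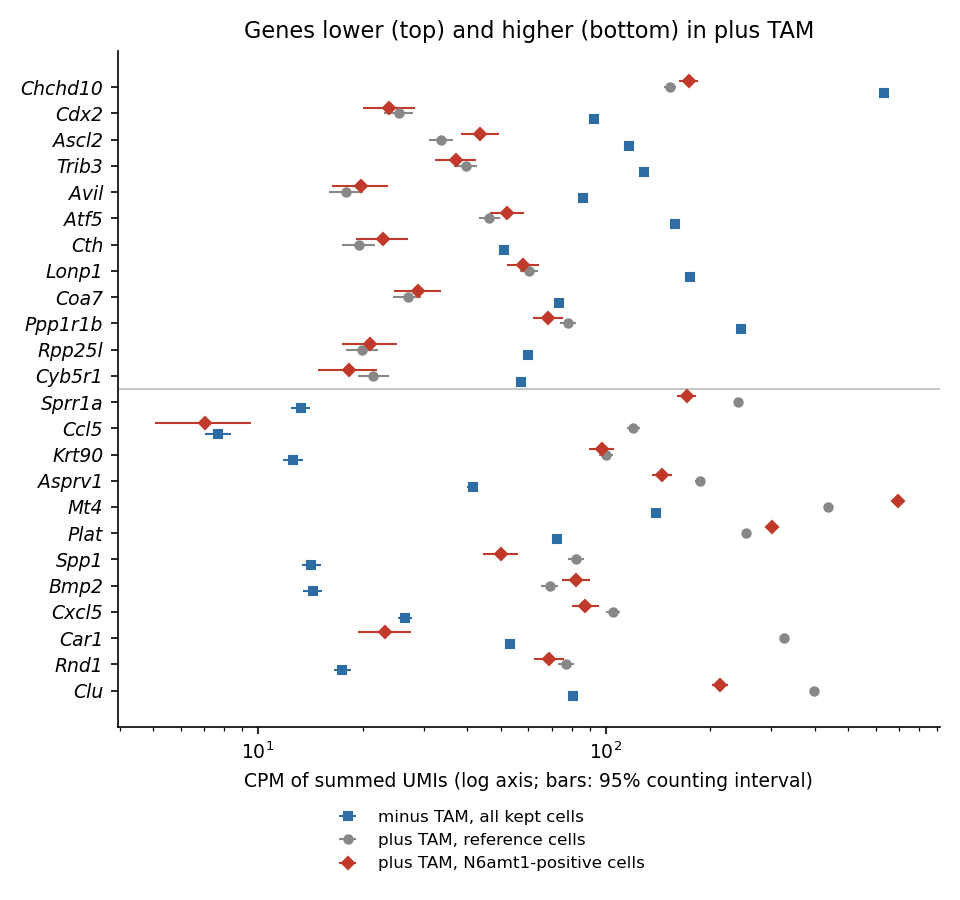
Level in CPM of summed UMIs (horizontal log axis, bars are 95% counting intervals) of 12 genes lower and 12 genes higher in plus TAM, for control cells (blue squares), reference cells (grey circles) and positive cells (red diamonds). Among the upper 12 genes the positive cells lie beside the reference cells, as for Chchd10 at 173 and 153 CPM against 632 CPM; among the lower 12, Ccl5, Car1 and Clu lie toward the control and Mt4, Plat and Bmp2 away from it.

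Genes of DNA replication lay mostly above the reference in positive cells, none of them by the threshold of size. The S phase list summed to 1017 CPM in positive cells, 919 CPM in reference cells and 1878 CPM in the control, a log2 ratio of 0.15 (0.10 to 0.19) and 10.2% of the distance. Of its 20 measured members 18 had a log2 ratio above 0 and 2 below, where 51.6% of all genes measured were above 0, and the median was 0.16. Those with the largest ratios were Tipin, of the replication fork protection complex (29.9 against 24.1 CPM, log2 ratio 0.31), the replicative helicase gene Mcm6 (49.5 against 40.4 CPM, 0.29), the sliding clamp gene Pcna (85.5 against 71.5 CPM, 0.26) and Rrm2, a subunit of ribonucleotide reductase (26.3 against 22.5 CPM, 0.23). Per cell the medians were 513 and 482 CPM, and 54 of 195 positive cells (27.7%, 21.5 to 34.5) against 115 of 585 reference cells (19.7%, 16.5 to 23.1) reached the control median of 1048 CPM.

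Genes of mitosis did not follow. The G2 and M phase list summed to 1959 CPM in positive, 2367 CPM in reference and 3252 CPM in control cells, and 13 of its 26 measured members were lower in positive cells and 0 higher, with a median log2 ratio of -0.33. They were led by Ube2c, which loads ubiquitin for the anaphase promoting complex (72.4 against 153 CPM), the centromeric histone gene Cenpa (26.1 against 50.2 CPM) and Cdc20, an activator of the same complex (22.4 against 40.6 CPM). Cells named cycling-like by their markers made up 8.72% of positive and 10.9% of reference cells. They held 86.2% of the Ube2c UMIs of positive cells and 92.6% of those of reference cells. Compared with zero cells of the same cluster, 8 of 23 G2 and M phase genes measured were lower and 0 higher, with a median of -0.08, and the S phase median was 0.15. In that comparison 1.06% of all genes measured were lower.

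The 28 cells with 2 or more N6amt1 UMIs lay farther from the control than their own 84 reference cells in some genes and nearer in others. For Chchd10 the 2 sets had 173 and 159 CPM, a log2 ratio of 0.12 (-0.16 to 0.38), and 0 of 28 cells reached the control median, which allows a share of up to 10.7% (3 counts of the total). Cdx2 stood at 9.97 against 23.7 CPM, on 9 UMIs in positive cells, Trib3 at 19.9 against 46.0 CPM and Ascl2 at 19.9 against 31.5 CPM. The 12 genes summed to 452 against 534 CPM (log2 ratio -0.24, -0.40 to -0.08), and the S phase list to 812 against 955 CPM (-0.23, -0.36 to -0.12). Both sums and the levels of Cdx2, Trib3 and Ascl2 were farther from the control than in reference cells, although for Ascl2 the interval of the log2 ratio (-1.48 to 0.08) holds 0. The 12 genes highest in the knockout library went the other way. They summed to 1510 against 2885 CPM with 494 CPM in the control, 57.5% of the distance (log2 ratio -0.93, -1.02 to -0.85). Among them Clu stood at 93.0 against 626 CPM with 80.4 CPM in the control, and Ccl5 at 0 against 476 CPM. Of the Ccl5 UMIs of all 585 reference cells, 10 cells held 96.7%. Per cell, 27 of the 28 cells were still at or above the control median of the sum of the 12 genes highest in the knockout library. Of the clusters described below, cluster 2 held 13 of the 28 cells (46.4%) and cluster 5 held 3 (10.7%). All knockout cells of clusters 2 and 5 stood at 37.1 and 913 CPM for Clu and at 19.9 and 60.5 CPM for Trib3. For Ascl2 they stood at 19.6 and 29.8 CPM, and for Chchd10 at 116 and 152 CPM. Whether the 28 cells differ from zero cells of the same clusters was not tested. The 3 cells with 3 N6amt1 UMIs had 12, 3 and 4 Chchd10 UMIs, and 0 Cdx2 UMIs in each.

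Read the other way, most knockout cells with control-like levels had no N6amt1 UMI, as was so for 86.1% of all kept knockout cells. Of all 1405 kept knockout cells 18 reached the control median of Chchd10 and 3 of these were positive (16.7%, interval 3.58 to 41.4), against 13.9% of all cells. Of the 8 that reached it for the 12-gene sum 1 was positive. For the S phase sum 286 reached it and 54 of these were positive (18.9%, 14.5 to 23.9), a larger share than among all cells by an interval for counting error only. Clustering of both libraries together, without N6amt1, placed 27 knockout cells in clusters 0 and 3, which otherwise held 695 and 525 control cells, and 4 of the 27 (14.8%, 4.19 to 33.7) were positive. These clusters were singled out after their makeup was seen. Apart from the S phase sum, the interval of each of these shares holds 13.9%, so no difference from it was detectable at these numbers of cells.

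Where the positive cells lay among the clusters differed from the reference. Cluster 2, led by the protease gene Prss56, the lipase genes Pnliprp1 and Pnliprp2, the tryptase gene Tpsb2 and the chemokine gene Cxcl14, held 84 of the 195 positive cells (43.1%) and 26.7% of the reference cells. Cluster 5, led by Inhba, Sprr1a, S100a7a, Ccl5 and Lce1h and with 12 markers of fetal-like epithelium, held 19.0% and 30.4%. Cluster 4, led by the lactate exporter gene Slc16a3 and the hypoxia-induced genes Bnip3 and Egln3, held 15.9% and 12.99%.

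The N6amt1 level left was correspondingly uneven. Cluster 2 had 10.2 CPM, 29.0% of the 35.3 CPM in control cells of the same cluster (interval 21.9 to 38.4), and cluster 4 had 20.4% left (14.3 to 28.4). In cluster 5 it was 3.41 CPM, 15.6% (9.64 to 25.4), and in the cycling-like cluster 1 it was 3.98 CPM, 13.2% (7.76 to 21.1). The intervals of cluster 2 and the cycling-like cluster do not overlap, while those of cluster 2 with clusters 4 and 5 do. The colonocyte-like cluster 8, led by Tmigd1, Clca4a and the carbonic anhydrase gene Car1, had 0 N6amt1 UMIs in 32 knockout cells of median depth 34653 UMIs, which by the same 3 counts allows a share of positive cells of up to 9.38% and a level of up to 7.24% of the 39.0 CPM in its control cells. Clusters were formed from expression, so a change of state brought by the knockout and a difference in cell type cannot be told apart in them.

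**Figure D4:**
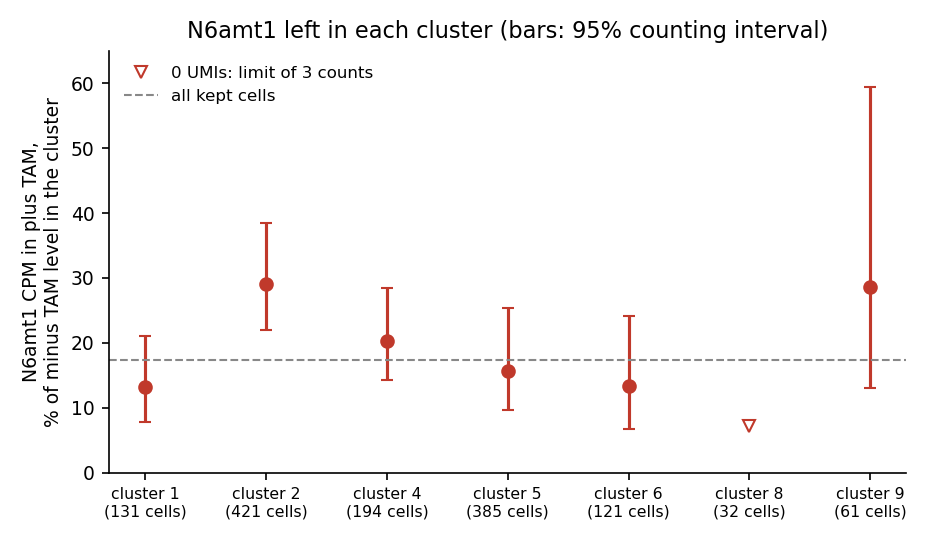
N6amt1 level left in plus TAM as a percentage of the minus TAM level of the same cluster (vertical axis), for 7 clusters with more than 30 plus TAM cells, with 95% counting intervals. The dashed line marks the 17.4% of all kept cells; cluster 2 stands at 29.0%, cluster 1 at 13.2%, and cluster 8, with 0 UMIs, is drawn at its limit of 7.24%.

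Fewer genes stood apart when positive cells were compared with zero cells of their own cluster. Of the 5481 genes measured 142 were higher and 218 lower in positive cells. In the control library, where the same procedure compared 1418 positive cells with their nearest zero cells, 8 of 5542 genes (0.144%) were higher and 22 (0.397%) lower, on many more cells and so with less counting error. When the reference was taken from zero cells of the same cluster, 60 of 5456 genes (1.1%) were higher and 58 (1.06%) lower.

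Intestinal stem cell genes, many of them Wnt feedback genes, were on the higher side. Of the 16 measured members of the intestinal stem cell list 6 were higher and 0 lower, with a median log2 ratio of 0.27. They included Tnfrsf19 (27.0 against 19.3 CPM), Znrf3, a ubiquitin ligase that removes Wnt receptors (61.2 against 44.2 CPM), and Nkd1, an intracellular Wnt antagonist (878 against 655 CPM, log2 ratio 0.42). Wif1, a secreted Wnt inhibitor outside the list, stood at 630 against 449 CPM. Among the highest ratios were also the metallothionein genes Mt4 (693 against 438 CPM) and Mt3 (535 against 379 CPM), the intermediate filament gene Vim (430.0 against 274 CPM), and the aminopeptidase gene Lap3 (208 against 133 CPM). Cluster 2 held 96.2% of the Mt4 and 80.3% of the Vim UMIs of positive cells. Against zero cells of the same cluster the log2 ratio was -0.06 for Mt4, -0.02 for Vim, 0.03 for Nkd1 and 0.33 for Lap3, and the stem cell list had a median of 0.08 with 1 of 16 higher. Without cells of a shared barcode its median was 0.22.

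These genes did not all lie toward the control. Nkd1, Mt4 and Vim were at 587, 140 and 165 CPM there, so the positive cells were farther from the control than the reference cells were. Hspb1, a small heat shock protein gene, had the highest ratio (145 against 59.3 CPM, log2 ratio 1.29), but 36.4% of its UMIs in positive cells came from 1 cell, and it was -0.43 without cells of a shared barcode. Gadd45g, a stress-induced growth arrest gene, stood at 0.41, with 24.5% of its UMIs in 1 cell and a log2 ratio of 0.10 without the cell with the most UMIs in each group. The others among the 12 highest were Tesc, Fgfrl1, Baiap2 and Tbx3, with log2 ratios of 0.56, 0.51, 0.43 and 0.43.

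Fetal-like and colonocyte genes were on the lower side. Of 19 measured fetal-like and revival genes 11 were lower in positive cells and 0 higher, with a median log2 ratio of -0.38. Clu, which marks revival stem cells after injury, was at 214 against 398 CPM, with 80.4 CPM in the control, the surface protein gene Ly6d at 112 against 210.2 CPM and Spp1, osteopontin, at 49.9 against 82.1 CPM. Of 10 measured colonocyte genes 6 were lower and 0 higher, with a median of -0.50. Interferon response genes had a median of -0.22 over 16 members, with 7 lower, such as Rsad2 (9.63 against 26.9 CPM) and Cxcl10 (29.2 against 67.3 CPM), and 1 higher, Ifi27l2a. Against zero cells of the same cluster the medians of the fetal-like, colonocyte and interferon lists were -0.07, 0.02 and -0.06, and without cells of a shared barcode they were -0.25, -0.13 and -0.12. In that setting Clu was -1.22 and Ly6d -0.57 on the log2 scale.

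**Figure D5:**
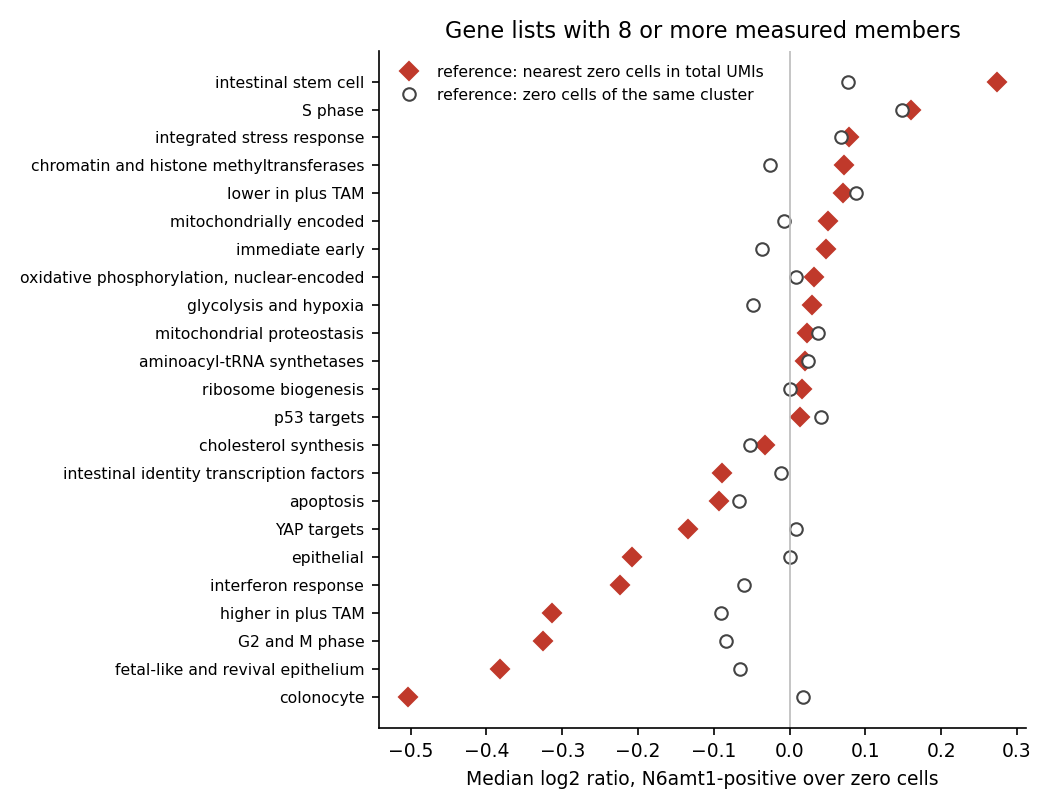
Median log2 ratio of positive over zero cells (horizontal axis) for gene lists with 8 or more measured members, with zero cells nearest in total UMIs as reference (red diamonds) or zero cells of the same cluster (open circles). With the first reference the medians run from -0.50 for colonocyte genes to 0.27 for intestinal stem cell genes, and with the second those 2 lists stand at 0.02 and 0.08.

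The most extreme low ratios rested on few reference cells. Ccl5, a chemokine gene whose product attracts T cells, stood at 7.05 CPM in positive cells, 120.1 CPM in reference cells and 7.69 CPM in the control (log2 ratio -4.09), and 10 reference cells held 96.7% of its reference UMIs. The log2 ratio of Ccl5 was -1.74 without cells of a shared barcode. After thinning, 3.08% of positive and 2.74% of reference cells held a Ccl5 UMI. Car1 stood at 23.2 against 326 CPM, with 97.3% of the reference UMIs in 10 cells and 96.4% in the colonocyte-like cluster, which has no positive cell. Its log2 ratio of -3.81 became 0.39 without cells of a shared barcode and 1.11 against zero cells of the same cluster. F3, which encodes tissue factor, was spread more widely, at 148 against 364 CPM, with 30.1% of the reference UMIs in 10 cells and a UMI in 104 of 195 positive and 396 of 585 reference cells. Lypd8, a colonocyte protein that holds bacteria off the epithelium, stood at 49.7 against 229 CPM (log2 ratio -2.21, and -0.04 without cells of a shared barcode), and the keratin gene Krt6a at 41.6 against 107 CPM. The rest of the 12 lowest were Cxcl10, Sprr2a3, whose near-identical family members can share reads, Ms4a8a, Ube2c, Tm4sf1, Plac8 and Ly6d.

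The 12 genes chosen earlier as highest in the knockout library gave a mixed picture. Of the 12 measured, 6 were lower in positive cells and 1 was higher, with a median log2 ratio of -0.31. Their sum was 1941 CPM in positive, 2398 CPM in reference and 494 CPM in control cells, 24.03% of the distance. Both Car1 (23.2 against 326 CPM) and Ccl5 (7.05 against 120.1 CPM), which rested on few reference cells, are in that sum. Per cell, however, the sum had medians of 1166 and 1229 CPM against 200.4 CPM in the control, and 185 of 195 positive cells (94.9%) and 559 of 585 reference cells (95.6%) lay at or above the control median. Sprr1a, a gene of the cornified envelope, stood at 171 against 241 CPM with 13.3 CPM in the control, and at 0.34 on the log2 scale without cells of a shared barcode. The keratin gene Krt90 stood at 97.7 against 100.2 CPM, with 12.6 CPM in the control. Plat, tissue plasminogen activator, and Bmp2, a differentiation signal of the crypt, stood at 301 against 254 CPM and 82.4 against 69.0 CPM, farther from the control at 72.7 and 14.4 CPM. Without cells of a shared barcode the median of the 12 was -0.0028. The same procedure in the control library gave a sum of 493 CPM in positive and 612 CPM in zero cells. The log2 ratio of that sum was -0.31 (interval -0.33 to -0.29) there and -0.31 (-0.34 to -0.28) in the knockout library.

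Within single clusters the control level itself was nearer. Weighted to the clusters of the positive cells, control cells stood at 375 CPM for Chchd10, 37.8 CPM for Cdx2, 39.3 CPM for Ascl2 and 1140 CPM for the 12-gene sum. Against zero cells of the same cluster, positive cells stood at 172 and 147 CPM for Chchd10 (log2 ratio 0.23, interval 0.12 to 0.34), 11.2% of the distance to that weighted level, and at 566 and 531 CPM for the 12-gene sum, 5.79% of it. The weighted S phase level of 1045 CPM stood beside 1018 CPM in positive and 938 CPM in their zero cells (log2 ratio 0.12, 0.08 to 0.16), which is 75.6% of a distance that is short. For Ascl2 the weighted control level was below the 43.8 CPM of positive cells. For the genes highest in the knockout library, summed, the weighted control level was 1400 CPM. Positive cells stood at 1946 CPM and their zero cells at 2148 CPM, 27.0% of that distance. Measured against the control median of its own cluster, 19 of 195 positive cells (9.74%, interval 5.97 to 14.8) and 44 of 585 reference cells (7.52%, 5.52 to 9.97) reached it for the 12-gene sum. For Chchd10 it was reached by 26 positive (13.3%, 8.90 to 18.9) and 51 reference cells (8.72%, 6.56 to 11.3). For the 4 genes named first, summed, it was reached by 32 (16.4%, 11.504 to 22.4) and 69 (11.8%, 9.29 to 14.7). These 585 reference cells were matched on total UMIs and not on cluster. Cluster 2 held 43.1% of the positive and 26.7% of the reference cells. The part of this makeup in the differing shares was not tested.

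The 4 larger clusters did not behave alike. In cluster 2, with 84 positive cells, the 12-gene sum was 371 CPM in positive, 407 CPM in zero and 722 CPM in control cells, and Chchd10 stood at 124, 115 and 237 CPM. In cluster 4, with 31 positive cells, the sum was 639, 665 and 1497 CPM in that order, and in the cycling-like cluster 1, with 17, it was 605, 657 and 2101 CPM. In these 3 clusters the positive cells lay below their zero cells in the 12-gene sum, and for clusters 1 and 4 the counting interval of the ratio holds 0 on the log2 scale. In cluster 5, with 37 positive and 111 zero cells, the sum was 668 CPM against 502 CPM (log2 ratio 0.41, 0.30 to 0.52), with 946 CPM in 41 control cells, which is 37.4% of the distance.

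In cluster 5 the per-cell medians of the 12-gene sum were 566, 453 and 1005 CPM in positive, zero and control cells, and 1 positive cell held 9.53% of the UMIs. Without cells of a shared barcode, 25 positive and 83 zero cells stood at 634 and 513 CPM (0.31, 0.17 to 0.44). Chchd10 stood at 192, 145 and 308 CPM, with 19.5% of its positive UMIs in 1 cell, and at 170.3 against 157 CPM without cells of a shared barcode. In cluster 5 the S phase sum was 762 CPM in positive, 496 CPM in zero and 415 CPM in control cells of the cluster, so there the positive cells were not nearer to the control. In cluster 2, which holds the most positive cells, the positive cells lay below their zero cells and beside the control, at 608 CPM in positive, 719 CPM in zero and 622 CPM in control cells (log2 ratio -0.24, -0.33 to -0.15). The S phase sum was 1085, 850.3 and 999 CPM in cluster 4 and 3015, 2827 and 3942 CPM in cluster 1. Whether cluster 5 differs from the other clusters was not tested.

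The partner subunit and other lists showed little difference. Trmt112 stood at 164 CPM in positive cells, 165 CPM in reference cells and 208 CPM in the control. The integrated stress response list had a median of 0.08 over 26 members, the aminoacyl-tRNA synthetases one of 0.02 over 20, and mitochondrial proteostasis, ribosome biogenesis and p53 target genes had medians of 0.02, 0.02 and 0.01 over 29, 30 and 16. Across these 5 lists 0 members were higher and 2 lower, the tryptophanyl-tRNA synthetase gene Wars (34.1 against 44.2 CPM) and Perp, a p53 target of cell junctions (145 against 188 CPM). The intestinal identity transcription factors had a median of -0.09 over 9, with 0 past the threshold.

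Markers of immune, fibroblast and endothelial cells were low in both sets. The 15 immune genes summed to 13.8 CPM in positive and 13.6 CPM in reference cells, with 11 at 0 in both, and the 11 fibroblast genes to 2.41 and 2.03 CPM, with 8 at 0 in both. The 9 endothelial genes summed to 27.3 and 26.9 CPM. Of the rare epithelial lineages, the 12 enteroendocrine genes summed to 7.40 and 3.53 CPM, higher in positive cells (log2 ratio 1.07, 0.47 to 1.65), and the 10 tuft cell genes to 1.72 and 2.84 CPM. No gene of these 5 lists reached the level to be measured. The only knockout cell in cluster 11, named enteroendocrine-like by its markers, was a positive cell. All 14 epithelial genes found were measured, at sums of 16062 and 18546 CPM, with 1 lower and 0 higher. Each of the 14 had a log2 ratio below 0, with a median of -0.21. Against zero cells of the same cluster the median was 0.00.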

How the data were processed

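Single-cell RNA was captured by 10x Chromium 3′ chemistry, version 2, per the labels' protocols. The authors deposited raw UMI counts, as 1 matrix of genes and barcodes for each group. Cell Ranger 3.1.0 wrote them, per the file headers, and the genome was mm10, per the submitters' processing notes. The 8 records of a group were taken as parts of 1 library, since the design text names 2 samples. The kept knockout cells hold 37676209 and the kept control cells 70472593 UMIs, with medians of 25067 and 25278 per cell.

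Cells were matched on total UMIs from the deepest positive cell down. In the control library zero cells were reused, since 1418 positive cells exceed 1126 zero cells. Counts were summed over cells and scaled to CPM without a pseudocount. Intervals are exact (Poisson, conditional binomial for ratios, Clopper-Pearson for shares), and the floor for a count of 0 is 3 counts. Genes with 20 or more CPM over both sets together were measured, N6amt1 left out. The steps were tested on simulated data. Both libraries were clustered together without N6amt1 (2000 variable genes, 30 principal components, 15 neighbours, Leiden resolution 0.8, scanpy 1.11.5). Doublets were scored with Scrublet but kept, with 2 positive and 8 reference cells among the highest scores, and removing the highest scores (0.8% per 1000 cells) is an alternative.

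The members and lists were chosen with earlier results of these data known. Named genes are N6amt1, Trmt112, the 4 genes of the question, the 24 genes highest or lowest in plus TAM, the 12 largest and 12 smallest ratios at 50 or more CPM without predicted genes, up to 4 members per list and up to 5 leading genes per cluster. Ifi27l2a and clusters 0 and 3 were singled out after their values were seen.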

Additional observations from a re-analysis of the deposited data

Results flagged for a closer look

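A gene stands here when its ratio of positive over zero cells passed a log2 value of 0.32 in opposite directions in the knockout and the control library. None of these differences between the libraries was tested, since each library is 1 sample. Car1 had a log2 ratio of -3.81 in plus TAM and 1.60 in minus TAM. Sprr2a3 had ratios of -1.14 and 0.38. The metallothionein genes Mt4 and Mt3 went the other way, with ratios of 0.66 and 0.50 in plus TAM and -1.07 and -0.99 in minus TAM. Against zero cells of the same cluster the plus TAM ratios were 1.11 for Car1, -0.18 for Sprr2a3, -0.06 for Mt4 and -0.11 for Mt3.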

How the results depend on the processing

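No paired analysis was possible because each group is 1 matrix, the replicate numbers only follow the order of the records, and no test was made. Values are log2 ratios of positive over zero cells or counts of genes past a log2 ratio of 0.32. With 2000 UMIs or 10% mitochondrial UMIs as limits, none of the main results moved beyond its counting interval or by 1.5 times. Without cells of a shared barcode, Chchd10 was 0.058, Trib3 -0.47, the median of genes lower in plus TAM -0.0087 and of genes higher in plus TAM -0.0028, while Car1 (0.39), Hspb1 (-0.43), Reg4 (-2.42) and Sprr1a (0.34) changed sign. Without the highest doublet scores the S phase median was 0.12 and that of genes higher in plus TAM -0.37. With all zero cells as reference 81 genes were higher, and the median of genes higher in plus TAM was -0.23. With zero cells reused, the medians of genes lower and higher in plus TAM were -0.091 and -0.38. With zero cells of the same cluster 60 genes were higher and 58 lower, the median of genes higher in plus TAM was -0.091, and signs changed for Car1 (1.11), Ceacam1 (0.018), Klf2 (-0.036), Lypd8 (1.54), Mt3 (-0.11), Mt4 (-0.063), Plac8 (0.37), Reg4 (-0.21), Vim (-0.019) and the colonocyte median (0.017). With 2 or more N6amt1 UMIs, on 28 cells and 84 reference cells matched anew, 858 genes were higher and 1019 lower. Cdx2 was -1.36 and Trib3 -1.31, and the S phase, lower and higher list medians were -0.25, -0.54 and -0.71. Signs changed for Ascl2 (-0.69), Gadd45g (-0.55) and Hspb1 (-2.19). The levels given for these 28 cells in the results used their reference cells from the main match, so the values differ slightly. With the mean CPM of each cell, the lower and higher list medians were 0.0074 and -0.24, and Gadd45g was -0.0098. At minimum levels of 10 and 50 CPM and with no minimum, 332, 40 and 2742 genes were higher and 383, 104 and 1882 lower, and at 50 CPM the lower list median was -0.055. At 1.5-fold 18 were higher and 64 lower. Without the colonocyte-like cluster, an alternative chosen after seeing the data, the S phase median was 0.11, Car1 0.94 and Lypd8 1.30. In the control library, 8 genes higher, 22 lower and an S phase median of -0.04 became 16 higher and -0.028 without shared barcodes, a median of -0.076 without doublets, 33, 45 and -0.016 with 2 or more UMIs, -0.057 with the mean of each cell, 28 and 46 at 10 CPM, 2, 7 and -0.054 at 50 CPM, 2067 and 1968 with no minimum, 2 and 10 at 1.5-fold, 3 and -0.025 without the colonocyte-like cluster and 5 higher when centred on the median. The cause of these shifts was not tested, beyond the fewer genes or cells that a setting leaves. With 195 cells of mostly 1 N6amt1 UMI, depth limits which cells are seen as positive.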
